A study of Mus musculus with 4 samples.

Results

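The genes described here are those for the making, sensing and breakdown of prostaglandin E2 (PGE2) in MC38, a mouse colon carcinoma cell line. There are 10 of them among the 27179 genes in the count table. They are defined by name: Pla2g4a, the cyclooxygenases Ptgs1 and Ptgs2, the PGE synthases Ptges, Ptges2 and Ptges3, the dehydrogenase Hpgd, and the receptors Ptger1, Ptger2 and Ptger4. Poly-A RNA of MC38 cells of wild-type genotype was sequenced as 1 library for each of 4 conditions. These were an untreated control under normoxic conditions, an untreated control under hypoxic conditions, IFN-γ under normoxic conditions and IFN-γ under hypoxic conditions. Normoxic cultures were kept at 20% oxygen and hypoxic ones at 1.5%. IFN-γ, a cytokine made by T cells and natural killer cells, was given at 5 ng/mL for 24 h in most of the experiments. The labels of the RNA-seq libraries give neither the dose nor the time. All 4 libraries came from a single cell line in culture, so no host, stromal or immune cell was part of the design.

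PGE2 is made in 3 steps. Cytosolic phospholipase A2 (Pla2g4a) frees arachidonic acid from membranes, a cyclooxygenase (Ptgs1 or Ptgs2) turns it into prostaglandin H2, and a terminal synthase turns that into PGE2. Ptgs1 is known as the constitutive and Ptgs2 as the inducible cyclooxygenase. Ptges is the inducible membrane synthase, whereas Ptges2 and Ptges3 are expressed in most cells, and Ptges3 is also the p23 co-chaperone of Hsp90. PGE2 acts on the receptors EP1 to EP4 (Ptger1 to Ptger4), of which EP2 and EP4 raise cyclic AMP. Hpgd inactivates PGE2 and is typically high in normal colon epithelium and low in colon tumours. PGE2 is also known to restrain T cells and natural killer cells in tumours.

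MC38 cells held RNA of all the steps from arachidonic acid release to PGE2, while Hpgd, the first breakdown step, and the cyclic AMP-linked receptors had none or very little. Ptgs2 and Ptges were well expressed in the untreated cells under normoxic conditions, at 2226 and 2332 counts, and stayed between 2089 and 2616 counts in all 4 libraries. Hpgd and Ptger2 had 0 counts in all 4 libraries and Ptger4 had between 4 and 11. Of 7 members tested, 0 passed for IFN-γ, against 5.86% of all genes tested. Hypoxia lowered 1 of the 7, Ptges2, by 0.21 on the log2 scale, against 6.83% of all genes lowered. This call was lost under every other setting of the fit tried.

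All coordinates are on GRCm38 (mm10), the build named in the submitters' processing notes, and were taken from RefSeq's GRCm38.p6 gene table. Pla2g4a (chr1:149829618-149961290, minus strand) and Ptgs2 (chr1:150100031-150108234, plus strand) are neighbours on chromosome 1. Ptgs1 (chr2:36216742-36258593, plus strand), Ptges (chr2:30889471-30931020, minus strand) and Ptges2 (chr2:32395890-32402740, plus strand) are on chromosome 2. Ptges3 is at chr10:128058982-128077254 (plus strand). Hpgd (chr8:56294552-56321046) and Ptger1 (chr8:83666644-83672756) are both on the plus strand of chromosome 8. Ptger2 is at chr14:44988111-45003820 (plus strand) and Ptger4 at chr15:5233399-5244187 (minus strand).

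The promoters of 3 members are printed because they carry the comparison with the 2 stimuli: Ptgs2 and Ptges, the inducible pair, and Ptges2, the member called under hypoxic conditions. Each runs 5′ to 3′ from 250 bases before to 50 bases after a transcription start in RefSeq, on the gene's own strand. They are at chr1:150099781-150100080 (plus strand) for Ptgs2, chr2:30903248-30903547 (minus strand) for Ptges and chr2:32395640-32395939 (plus strand) for Ptges2. The Ptges start lies inside the annotated gene, which has a longer form. Capitals mark matches, on either strand, to 2 hypoxia response cores and to the cyclic AMP response core, spelled out after the sequences.
Ptgs2: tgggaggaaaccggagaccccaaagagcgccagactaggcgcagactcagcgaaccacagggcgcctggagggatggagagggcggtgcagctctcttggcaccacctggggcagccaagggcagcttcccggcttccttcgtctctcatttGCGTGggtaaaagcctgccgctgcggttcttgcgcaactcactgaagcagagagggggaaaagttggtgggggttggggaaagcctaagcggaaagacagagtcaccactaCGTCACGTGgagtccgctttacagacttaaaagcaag
Ptges: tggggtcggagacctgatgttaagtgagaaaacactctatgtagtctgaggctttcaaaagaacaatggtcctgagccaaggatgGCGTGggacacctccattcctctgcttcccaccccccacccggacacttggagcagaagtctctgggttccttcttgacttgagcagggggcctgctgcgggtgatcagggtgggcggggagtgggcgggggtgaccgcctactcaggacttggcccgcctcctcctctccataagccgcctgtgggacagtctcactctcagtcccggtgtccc
Ptges2: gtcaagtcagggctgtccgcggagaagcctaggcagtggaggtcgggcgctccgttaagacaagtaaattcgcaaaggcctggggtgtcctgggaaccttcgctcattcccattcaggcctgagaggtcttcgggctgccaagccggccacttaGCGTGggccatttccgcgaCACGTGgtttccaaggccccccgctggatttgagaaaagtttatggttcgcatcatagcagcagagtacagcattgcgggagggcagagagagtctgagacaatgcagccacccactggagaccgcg

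The motifs searched were the hypoxia cores ACGTG and GCGTG, the cyclic AMP core TGACG, the interferon-gamma activated site TTCNNNGAA, an interferon-stimulated response element core (a pair of GAAA with 2 bases between them), the NF-κB consensus and TATAAA, each on both strands. RefSeq promoters were found for 9 of the 10 members, 10 entries in all, with none used here for Ptger1. Neither TTCNNNGAA, which 8.3% of 32851 promoters of this length held, nor the response element core, which 3.44% held, was found in any of the 9 members. ACGTG was found in 2 members and in 19.6% of all promoters. In both Ptgs2 and Ptges2 it stood as CACGTG, which reads ACGTG on both strands and so counts as 2 overlapping matches, at positions 17 and 18 in Ptgs2 and -77 and -76 in Ptges2, where 1 is the first base transcribed and -1 the base before it. GCGTG was found in 6 members and in 32.4% of all promoters. In the printed sequences it stood at -98 in Ptgs2, -165 in Ptges and -96 in Ptges2. TGACG was found in Ptgs2, at 14 and overlapping ACGTG, and in Ptges3, against 20.8% of all promoters. The NF-κB consensus was found in Ptges3 alone, against 6.93%, and TATAAA in Hpgd and in a second Pla2g4a promoter, against 13.6%. These matches describe the letters of these windows and are not evidence of binding.

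The libraries were of even depth, with between 34302971 and 34537939 counts on genes, so that the floor of 3 counts was 0.0869 to 0.0875 CPM (counts scaled to a library of 1000000). Both stimuli left their known marks: of 12 IFN-γ response genes, 11 were tested and all 11 rose with IFN-γ (median log2 change 2.76), and of 12 hypoxia response genes 11 rose and 1, Pfkfb3, fell with hypoxia (median 1.27). The labelled cell type was less clear. Of 10 colon epithelial markers, 3 were at 0 in all libraries, Cdh1 and Cdx2 among them, Epcam had at most 2 counts, and the list summed to 3.25 to 3.85 CPM in a library. Of 8 fibroblast markers 7 were detected, with a sum of 103 to 140 CPM, mostly from Col3a1 and Pdgfra, with Thy1 at 0. Col3a1 fell with IFN-γ, by 0.39 on the log2 scale (edgeR, adjusted p = 1.98e-07), and its part in the members' values was not tested. The macrophage markers summed to 23.8 to 28.3 CPM, mostly Cd14 and Cd68, with Adgre1 and Itgam at 0. T cell markers summed to 0.261 to 0.787 CPM, with 3 of 6 at 0, and endothelial markers to 1.04 to 1.91 CPM, with 1 of 5 at 0. In these bulk samples fewer expressing cells and less RNA per cell cannot be told apart.

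Levels were compared between genes as CPM per kilobase of annotated exon, averaged over the 4 libraries. Ptges3 was the highest member at 106 CPM per kilobase, above 96.6% of the tested genes. It was followed by Ptges at 17.6, Ptgs2 at 13.9, Ptges2 at 8.3, Pla2g4a at 3.91, Ptger1 at 2.95, Ptgs1 at 1.64 and Ptger4 at 0.0295. Between the highest and the lowest library these levels differed by a factor of 1.10 to 1.23 for the 7 members above Ptger4. That is less than the gap between any neighbours in the order, so their ranges did not overlap. With the length of the longest coding transcript in place of all exon bases the order held except that Pla2g4a (8.75) moved just above Ptges2 (8.43). Ptgs2 and Ptges stood above 70.6% and 75.7% of tested genes, and Ptgs1 above 26%. The level and place of Ptger1 are those of the counts as deposited, because the reads given to it may not all be its own.

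**Figure D1:**
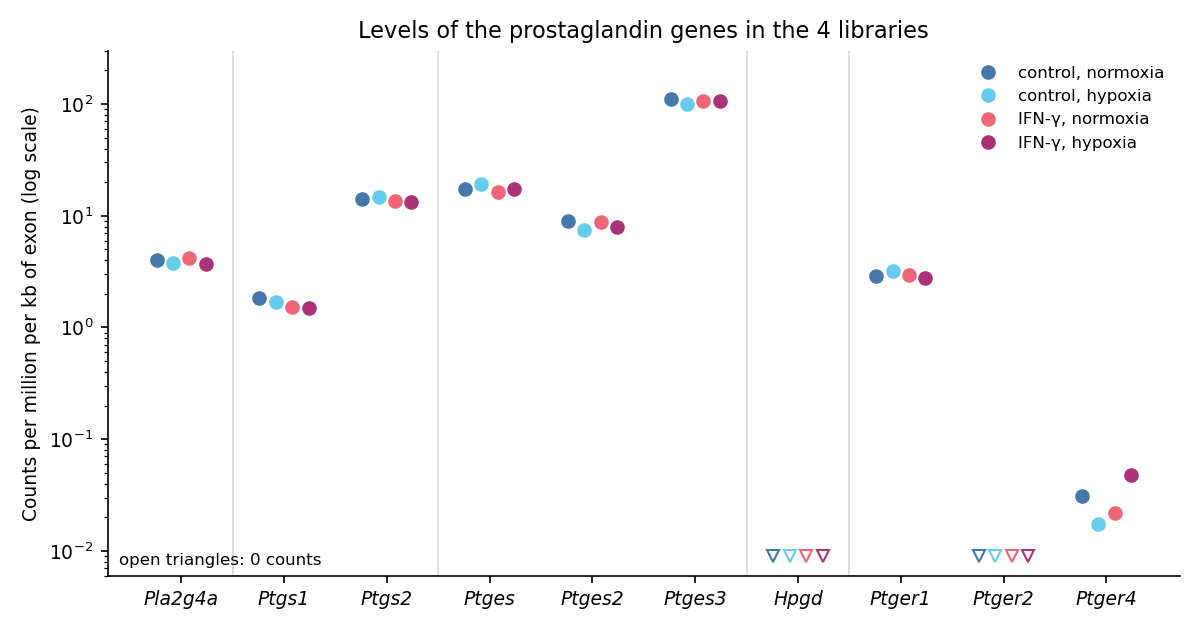
Levels of the 10 members in CPM per kilobase of exon (log axis), with 1 point for each of the 4 libraries and open triangles for 0 counts. The points of each of the 7 members above Ptger4 lie close together. The members lie apart, from 106 for Ptges3 to 1.64 for Ptgs1, while Hpgd and Ptger2 are at 0 in all libraries. Reads given to Ptger1 may not all be its own.

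Pla2g4a, which frees arachidonic acid, had 878 counts in the control under normoxic conditions, 826 in the control under hypoxic conditions, 933 with IFN-γ under normoxic conditions and 806 with both. Both hypoxic libraries were lower than both normoxic ones. The share of all tested genes that separate this way was not computed, so such orders, here and below, are not read as responses. With hypoxia the fitted log2 change of Pla2g4a was -0.15 ± 0.0854 (SE), with a 95% interval of -0.32 to 0.02 (edgeR, adjusted p = 0.264). With IFN-γ it was 0.04, between -0.13 and 0.21 (edgeR, adjusted p = 0.935).

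Ptgs1, the constitutive cyclooxygenase, had 247 and 225 counts in the normoxic and hypoxic controls, and 206 and 201 with IFN-γ. Both IFN-γ libraries were lower than both controls. The fitted log2 change with IFN-γ was -0.20 ± 0.152 (SE), with a 95% interval of -0.50 to 0.10, the widest among the members (edgeR, adjusted p = 0.669). With hypoxia it was -0.08, between -0.38 and 0.21 (edgeR, adjusted p = 0.783). At these counts a change of this size was not detectable.

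Ptgs2, the inducible cyclooxygenase, had 2226 and 2307 counts in the normoxic and hypoxic controls, and 2145 and 2089 with IFN-γ. Again both IFN-γ libraries were the lower ones, by little. The fitted log2 change with IFN-γ was -0.08 ± 0.0692 (SE), with a 95% interval of -0.22 to 0.05 (edgeR, adjusted p = 0.713). With hypoxia it was 0.01, between -0.13 and 0.14 (edgeR, adjusted p = 0.957), and only 4.37% of the tested genes had a smaller fitted change in size. Its longest coding transcript held 15 copies of ATTTA, the core of AU-rich elements that shorten the life of an mRNA, in 4453 bases. Of 21877 coding genes 3.86% held as many or more, counted over the whole transcript and without matching for length.

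Ptgs2 was the main cyclooxygenase RNA in each library. Per kilobase of exon, its level was 7.64 times that of Ptgs1 in the normoxic control (95% counting interval 6.36 to 9.32), 8.70 times in the hypoxic control (7.19 to 10.7), 8.83 times with IFN-γ under normoxic conditions (7.21 to 10.9) and 8.81 times with both (7.21 to 11.0). These 4 intervals overlap. With the longest coding transcripts as lengths the ratios were lower, between 5.80 and 6.70.

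Ptges, the inducible PGE synthase, had 2332 and 2616 counts in the normoxic and hypoxic controls, and 2226 and 2355 with IFN-γ. Within each treatment the hypoxic library was the higher one. The fitted log2 change with hypoxia was 0.13 ± 0.0680 (SE), with a 95% interval of -0.01 to 0.26 (edgeR, adjusted p = 0.223). With IFN-γ it was -0.10, between -0.23 and 0.04 (edgeR, adjusted p = 0.620).

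Ptges2, a synthase of most cells, had 1570 and 1303 counts in the normoxic and hypoxic controls, and 1529 and 1381 with IFN-γ. Both hypoxic libraries were lower than both normoxic ones. The fitted log2 change with hypoxia was -0.21 ± 0.0755 (SE), with a 95% interval of -0.35 to -0.06 (edgeR, adjusted p = 0.0443). In 8 other fits the change kept its direction and the adjusted p ran from 0.0547 to 0.505, so the call rests on the exact setting. With IFN-γ the change was 0.04, between -0.11 and 0.18 (edgeR, adjusted p = 0.937).

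The level of Ptges relative to Ptges2, per kilobase of exon, was 1.91 in the normoxic control (95% counting interval 1.74 to 2.09) and 2.58 in the hypoxic control (2.35 to 2.84), which do not overlap. With IFN-γ it was 1.87 under normoxic (1.71 to 2.06) and 2.19 under hypoxic conditions (1.996 to 2.41), and these intervals overlap. The hypoxic library was the higher one in both cases. Whether the ratios with IFN-γ differ beyond counting error was not tested, since overlapping intervals do not decide it.

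Ptges3, the p23 co-chaperone and cytosolic synthase, had 8473 and 7642 counts in the normoxic and hypoxic controls, and 8122 and 8082 with IFN-γ. The hypoxic control was the lowest library and the normoxic control the highest. The fitted log2 change with hypoxia was -0.08, between -0.18 and 0.03 (edgeR, adjusted p = 0.401), and with IFN-γ 0.02, between -0.08 and 0.13 (edgeR, adjusted p = 0.946). Its counts are uncertain, because 20.6% of its 2215 words of 31 bases also occur in other genes, nearly all in the processed pseudogene Ptges3-ps. That pseudogene was given 2961 and 3028 counts in the normoxic and hypoxic controls, and 3037 and 2772 with IFN-γ. How reads matching both were counted is not given in the sources used here. The sum of both ran from 10670 to 11434 counts.

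Of the PGE2 receptors, only Ptger1 passed the filter on low counts. It had 542 and 605 counts in the normoxic and hypoxic controls, and 555 and 520 with IFN-γ. The highest and the lowest library were both hypoxic, and the groups of either stimulus overlapped. The fitted log2 change with IFN-γ was -0.08, between -0.28 and 0.12 (edgeR, adjusted p = 0.868), and with hypoxia 0.04, between -0.16 and 0.23 (edgeR, adjusted p = 0.871). Whether all reads given to Ptger1 were its own was not settled, so its level and changes are those of the counts as deposited and may not be those of the receptor.

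Ptger4, the EP4 receptor, had 7 and 4 counts in the normoxic and hypoxic controls, and 5 and 11 with IFN-γ. These counts are too few for the filter of the fit, and no change was read from them. Of its 6648 exon bases, 1015 (15.3%) lie over exons of Gm15937 and 82 over exons of Ttc33, both on the opposite strand, and Ttc33 had 790 to 830 counts. The libraries kept strand, but whether counting used it is not given in the sources used here, and without strand such reads cannot be told apart. Smaller overlaps on the opposite strand were found for Ptgs1 (148 bases) and Ptger2 (246 and 144 bases). Ptger2, the EP2 receptor, had 0 counts in all 4 libraries, and so did Ptger3, the EP3 receptor, which is not a member. Hpgd, the breakdown enzyme, was likewise at 0. A count of 0 allows a level of up to 0.0869 to 0.0875 CPM (3 counts), or 0.174 to 0.175 CPM if the mates of a pair were counted one by one (6 counts). These limits cover counting error only.

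**Figure D2:**
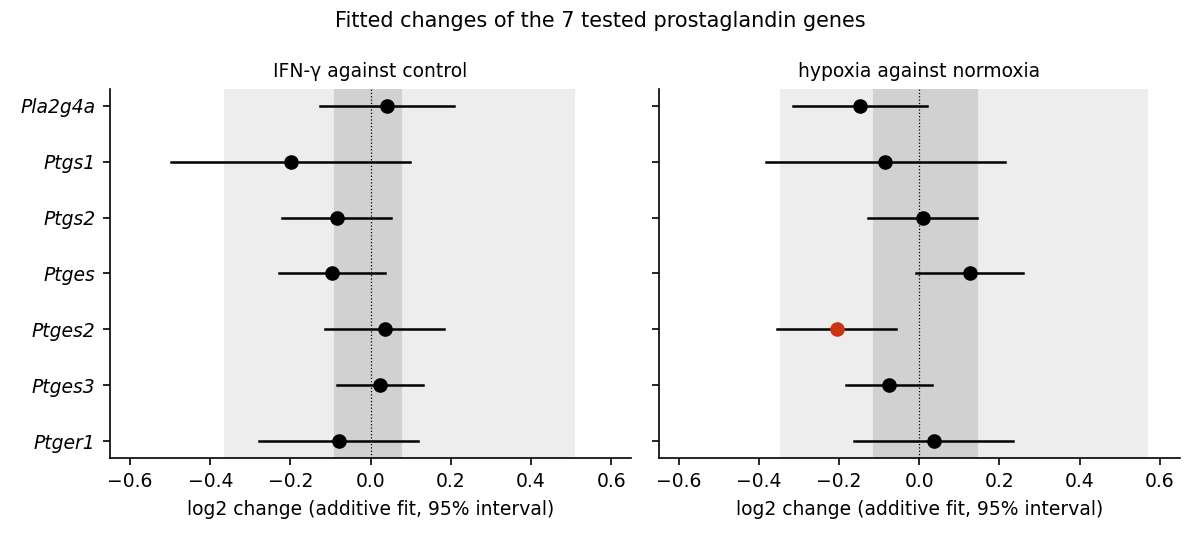
Fitted log2 changes of the 7 tested members with IFN-γ and with hypoxia, with 95% intervals from edgeR, on a dark band for the middle 50% and a light band for the 5th to 95th percentile of all 13580 tested genes. A red point marks an adjusted p under 0.05, which Ptges2 alone has, at -0.21 with hypoxia.

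Over the members, 7 of 10 passed the filter on low counts and were tested. The test was edgeR's quasi-likelihood fit over all 13580 genes that passed, with IFN-γ and oxygen as additive terms. With 1 library per condition, its spread comes from departures from additivity, with 1 residual degree of freedom per gene and pooling across genes. The p-values do not stand for replicate cultures, and no member's SE rests on its own spread alone. With IFN-γ 0 of the 7 members were called in either direction at an adjusted p under 0.05 in edgeR, against 5.86% of all genes tested, 4.76% raised and 1.1% lowered. At an unadjusted p under 0.05, 0 members passed in edgeR, against 14.0% of all genes, and DESeq2 called none either. With hypoxia 1 of 7 was lowered and 0 were raised, against 15.0% of all genes, 8.21% raised and 6.83% lowered. At an unadjusted p under 0.05 in edgeR 1 member passed, against 26.5% of all genes. With 7 members, these shares are near the background.

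In the additive fit, which averages over the 2 pairs of each stimulus, the 7 intervals lay within -0.50 and 0.21 on the log2 scale with IFN-γ, and within -0.38 and 0.26 with hypoxia. Like the p-values, they do not cover differences between replicate cultures, and the counting intervals of single pairs reached further, from -0.63 to 0.29 with IFN-γ and from -0.51 to 0.40 with hypoxia. The median change of the members was -0.08 with IFN-γ, against -0.01 over all tested genes, and -0.08 with hypoxia, against 0.0047. In size, the median change was 0.079 against 0.083 over all genes with IFN-γ, and 0.0845 against 0.125 with hypoxia.

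Each stimulus was also read in its 2 pairs of libraries alone, as log2 ratios of normalised CPM. The deposited counts behave like reads whose mates were counted one by one: between 64.0% and 66.3% of the counts from 1 to 10 were even, against 49.9% to 50.6% of those of 1000 or more. Intervals were therefore taken from halved counts, and they cover counting error only. IFN-γ under normoxic conditions gave 0 of 7 members an interval without 0, against 20.5% of all tested genes. IFN-γ under hypoxic conditions gave 3 of 7, against 23.9%, and these were Ptgs2 at -0.13 (-0.25 to -0.01), Ptges at -0.14 (-0.25 to -0.02) and Ptges3 at 0.09 (0.03 to 0.16). Ptgs2 and Ptges thus stood slightly lower and Ptges3 slightly higher in that pair. The pseudogene Ptges3-ps moved the other way, at -0.11, and the sum of its counts and those of Ptges3 stood at 0.04.

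Hypoxia without IFN-γ gave 3 of 7 members an interval without 0, against 30.9% of all tested genes. Ptges stood higher, by 0.17 (0.05 to 0.28), while Ptges2 was at -0.27 (-0.42 to -0.12) and Ptges3 at -0.15 (-0.21 to -0.08). Ptges3-ps was at 0.03 in this pair, and the sum of Ptges3 and Ptges3-ps at -0.10. Hypoxia with IFN-γ gave 1 of 7, Pla2g4a at -0.21 (-0.40 to -0.01), against 31.6%. In that pair Ptges2 was at -0.15, with an interval of -0.30 to 0.0048. The synthases Ptges and Ptges2 kept opposite signs in both hypoxia pairs, Ptges at 0.17 and 0.08 and Ptges2 at -0.27 and -0.15.

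**Figure D3:**
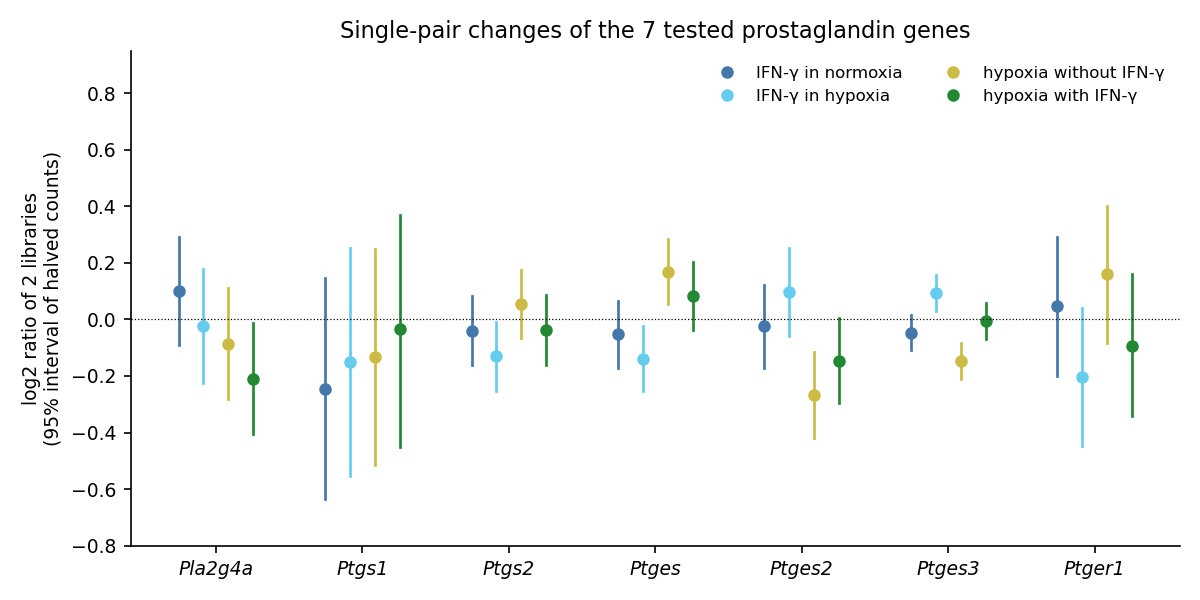
Log2 changes of the 7 tested members in each of the 4 pairs of libraries that differ in 1 stimulus, with 95% counting intervals from halved counts. All points lie between -0.27 and 0.17, and Ptges2 is below 0 and Ptges above 0 in both hypoxia pairs.

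Whether hypoxia altered the response to IFN-γ cannot be tested without replicates, so the differences between the IFN-γ changes in the hypoxic and the normoxic pair are given as values. Ptges3 was the 1 member of 7 whose counting interval excluded 0, against 16.6% of all tested genes. Its difference was 0.14 (0.05 to 0.23), while that of its pseudogene was -0.17 (-0.31 to -0.02), and the sum of the 2 gave 0.06 (-0.02 to 0.13). The interval of the sum thus holds 0. Ptger1 had the largest difference in size, -0.25, with an interval of -0.59 to 0.09.

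**Figure D4:**
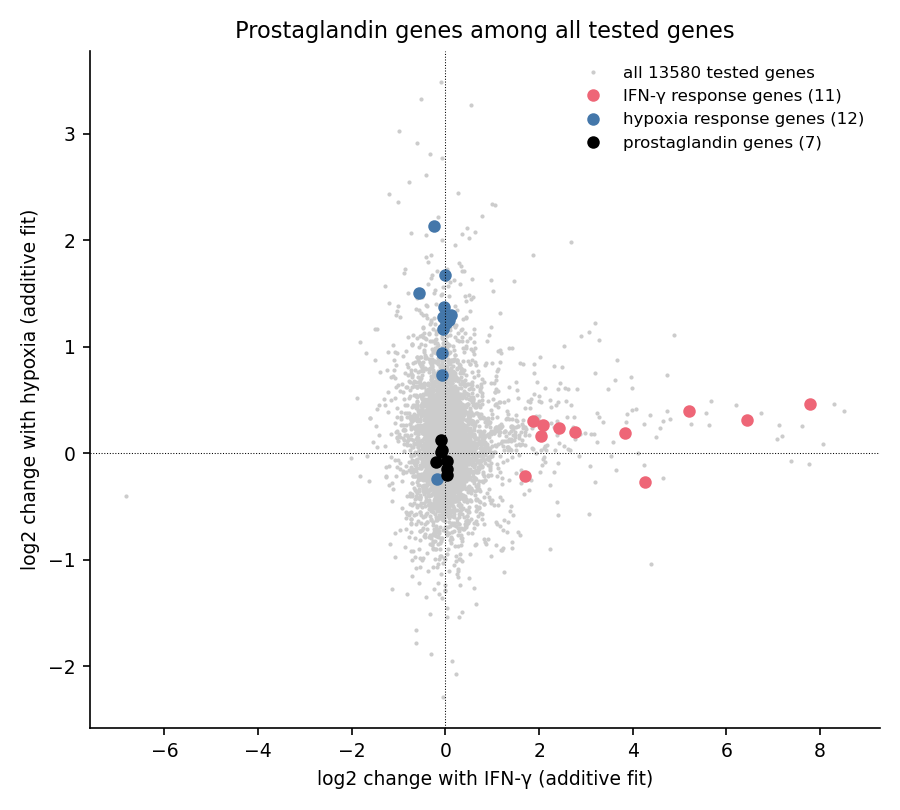
Fitted log2 change with hypoxia (vertical axis) against that with IFN-γ (horizontal axis) for all 13580 tested genes in grey, with the 7 tested members in black, 11 IFN-γ response genes in red and 12 hypoxia response genes in blue. The members sit near the origin, between -0.20 and 0.04 with IFN-γ and between -0.21 and 0.13 with hypoxia, away from both response lists other than Pfkfb3.

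Around the members, 7 lists of other pathway genes were read in the same fit. They were chosen for their roles. In all, 62 of their 92 genes were tested, of which 2 passed for IFN-γ, against 5.86% of all genes tested, and 13 for hypoxia, against 15.0%. These calls depend on the test: the 13 became 0 with 2 libraries against 2 in edgeR, 2 with DESeq2's Wald test and 4 with 2 against 2 in DESeq2, and the 2 became 0, 1 and 1. Of 26 genes of arachidonate release and handling, 19 were tested and 0 passed for IFN-γ. With hypoxia the lysosomal phospholipase Pla2g15 (log2 change 0.41 ± 0.0884 SE; edgeR, adjusted p = 6.96e-05) and Acsl4, which ties arachidonic acid to coenzyme A (0.15 ± 0.0563; adjusted p = 0.0424), rose. Pla2g4b, a relative of Pla2g4a (-0.37 ± 0.120; adjusted p = 0.0173), and the phospholipase activator Plaa (-0.15 ± 0.0565; adjusted p = 0.0466) fell.

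The other prostanoid synthases set the alternatives to PGE2. Of 9 genes 4 were tested, 0 passed for IFN-γ and 1, Akr1b3, an aldose reductase that can make prostaglandin F2α, fell with hypoxia (log2 change -0.23 ± 0.0488 SE; edgeR, adjusted p = 6.26e-05). Akr1b3 had 23560 and 19997 counts in the normoxic and hypoxic controls and 23724 and 20250 with IFN-γ, so both hypoxic libraries were the lower ones. Ptgis, the prostacyclin synthase, had 636 and 535 counts in the controls and 501 and 539 with IFN-γ. The prostaglandin D2 synthases were scarce, with at most 6 counts of Ptgds and 7 of Hpgds in a library. Tbxas1, the thromboxane synthase, had at most 4.

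Of 6 genes of prostanoid transport and breakdown, 5 were found in the table and tested, 0 passed for IFN-γ and 1 rose with hypoxia. This was Ptgr2, a reductase of 15-keto-prostaglandins (log2 change 0.33 ± 0.0996 SE; edgeR, adjusted p = 0.00963). It had 552 and 710 counts in the normoxic and hypoxic controls and 476 and 583 with IFN-γ. Ptgr1, a reductase of the same breakdown route, had between 637 and 804 counts. The uptake transporter Slco2a1 had between 34 and 52 counts and the exporter Abcc4 between 2953 and 3487.

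Of 8 genes around the other prostanoid receptors only Ptgfrn, a protein bound to the prostaglandin F receptor and not a receptor for a prostanoid, was tested, and it passed for neither stimulus. Ptger3 and Ptgdr were at 0 in all libraries, and Tbxa2r, Ptgir, Ptgfr, Ptgdr2 and Pparg had at most 14 counts each. The lipoxygenase arm was also thin. Of 13 genes 3 were tested, 0 passed for IFN-γ and 1, Alox5ap, rose with hypoxia (log2 change 0.67 ± 0.203 SE; edgeR, adjusted p = 0.0103), from 108 to 149 counts in the controls and from 79 to 146 with IFN-γ. Its partner Alox5, the 5-lipoxygenase, was at 0 in all libraries.

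**Figure D5:**
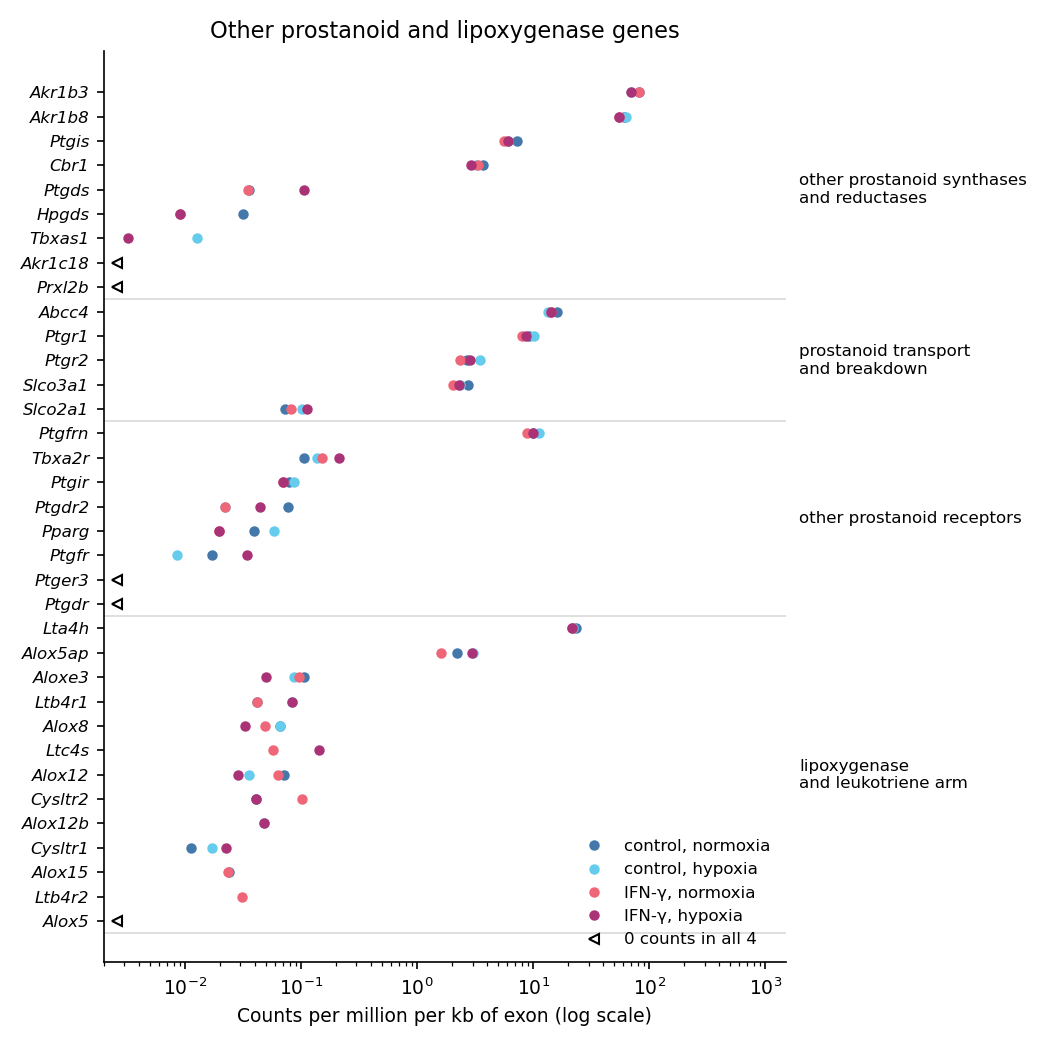
Levels of the other prostanoid and lipoxygenase genes of 4 lists in CPM per kilobase of exon (log axis), with 1 point for each library that has counts and open triangles pointing left for genes at 0 in all 4 libraries. Akr1b3, Akr1b8, Lta4h, Abcc4 and Ptgfrn are the highest, and every receptor other than Ptgfrn, itself no prostanoid receptor, lies far lower or at 0.

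Downstream, 20 genes of the cyclic AMP and CREB response were all tested. With IFN-γ 1 rose, the cyclic AMP response modulator Crem (log2 change 0.65 ± 0.149 SE; edgeR, adjusted p = 0.000376). With hypoxia 3 rose: the clock gene Per1 (0.45 ± 0.0808; adjusted p = 8.16e-07), the MAP kinase phosphatase Dusp1 (0.65 ± 0.143; adjusted p = 0.000116) and the adenylyl cyclase Adcy9 (0.60 ± 0.222; adjusted p = 0.0435). All 4 also respond to signals other than prostaglandins.

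Of 11 genes known to regulate Ptgs2 mRNA, 10 were tested. Cebpb, a transcription factor that can bind the Ptgs2 promoter, rose with IFN-γ (log2 change 0.56 ± 0.0681 SE; edgeR, adjusted p = 1.50e-14) and fell with hypoxia (-0.25 ± 0.0680; adjusted p = 0.00343). The early response factor Egr1 (-0.53 ± 0.122; adjusted p = 0.000281) and Zfp36l2, which binds AU-rich elements (-0.22 ± 0.0550; adjusted p = 0.00151), also fell with hypoxia. The fitted change of Ptgs2 itself was -0.08 with IFN-γ and 0.01 with hypoxia.

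The patterns most like those of the members with the lowest adjusted p were sought among 11489 genes with at least 50 counts on average, by the distance between centred log2 CPM over the 4 libraries. For Ptges2 the nearest were Tead4 (0.0164), Dxo, Pgghg, Gga2 and Polr1a (0.0237). For Ptges they were Naxe (0.0115), Cpt2, Aldh3a2, Nkiras2 and Pcdh7 (0.0208), and for Pla2g4a they were Fastkd3 (0.006), Mtch2, Kpna3, Met and Psmb6 (0.0148). Within a distance of 0.1 there were 516, 748 and 1004 genes respectively, so patterns like these are common.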

How the data were processed

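The strand-specific poly-A libraries were sequenced from both ends on a DNBSEQ instrument and aligned with HISAT2. The authors deposited raw counts of reads per gene for all 4 libraries in 1 table of 27179 NCBI gene IDs. The submitters' processing notes name featureCounts and mm10. Versions, annotation, strand setting and the handling of multi-mapping reads are not given in the sources used here. Groups came from the labels, and 25275 IDs were matched to symbols.

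The counts were tested with edgeR 4.0.16 (R 4.3.3) by its quasi-likelihood test, with TMM normalisation, a minimum of 10 counts in its default filter, additive terms for IFN-γ and oxygen, and Benjamini-Hochberg adjustment at 0.05 over all genes tested. DESeq2 1.42.0, other normalisations and filters, and halved counts were alternatives. Halved counts, and the longest coding transcript as length, were chosen after seeing the data. Single-pair ratios had 0.5 counts added and exact 95% (Clopper-Pearson) intervals. The estimated spread was a coefficient of variation of 4.71%. Scripts were tested on simulated data.

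The members and lists were chosen with earlier results of these data known. Named were all members, genes of the pathway lists with an adjusted p under 0.05, at most 5 per list and stimulus, and the 5 nearest patterns of 3 members. Genes given by level only (such as Ptgis, Abcc4 and the marker genes) were named after their values were seen. Reads given to Ptger1 may not all be its own, and 1 result on this is not reported here.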

Additional observations from a re-analysis of the deposited data

Results flagged for a closer look

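Of the 14 combinations of a tested member and a stimulus, 6 had log2 changes of opposite sign in the 2 pairs of libraries that differ in that stimulus. The share of all tested genes with opposite signs was not computed, so this count is not read as a trait of the members. The difference between the pairs was not tested, because each condition has 1 library. For IFN-γ, Pla2g4a had a log2 change of 0.10 in the normoxic pair and -0.02 in the hypoxic pair, a difference of -0.12. Ptges2 changed by -0.02 and 0.10, a difference of 0.12, and Ptges3 by -0.05 and 0.09, a difference of 0.14. Ptger1 changed by 0.05 and -0.21, a difference of -0.25. For hypoxia, Ptgs2 changed by 0.05 without and -0.04 with IFN-γ, a difference of -0.0909. Ptger1 changed by 0.16 without and -0.09 with IFN-γ, the same difference of -0.25, since it is computed from the same 4 libraries.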

How the results depend on the processing

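The call of Ptges2 with hypoxia was the only member call, and the number of members called with hypoxia was 0 in place of 1 in all 9 alternatives: DESeq2's size factors in edgeR, total counts, no filter, at least 10 counts in every library, halved counts, 2 libraries against 2 in edgeR and in DESeq2, DESeq2's Wald test, and an added log2 change of at least 0.5. For the pathway lists, the number called with IFN-γ went from 2 to 0 with 2 libraries against 2 in edgeR and to 1 with either DESeq2 test. With hypoxia it went from 13 to 0 with 2 against 2 in edgeR, to 2 with DESeq2's Wald test, to 4 with 2 against 2 in DESeq2 and to 4 with the added log2 change. The change of Ptgs2 with hypoxia went from 0.01 to -0.0002 without the filter. The cause of these moves was not tested. Read in each pair alone, the changes of Ptges3 and Ptger1 moved most. Those with IFN-γ changed sign, and so did that of Ptger1 with hypoxia, as given for the pairs. No paired analysis was possible because each condition has 1 library and so no replicate numbers to pair. The additive fit already holds the other stimulus as a term, which the comparisons of 2 libraries against 2 leave out. With 1 library per condition no library could be left out: 3 libraries leave no residual degrees of freedom in this model. Depth limits Ptgs1 and Ptger4 most among the members detected.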
